A study of Rattus norvegicus with 24 samples.

Results

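The 6 vehicle libraries of a series on cultured rat striatal neurons are described here. They are the libraries whose cultures received DMSO, the solvent of the compounds, in place of both the D1 receptor agonist SKF and a bromodomain inhibitor, and they were chosen by their labels alone. They make up 6 of the 23 libraries analysed and of the 24 samples labelled. Treated libraries enter the values below only where a fit of all 23 libraries is named. Experiment 3 gave 2 libraries after 24 h in DMSO, experiment 2 gave 2 libraries after 60 min and experiment 1 gave 2 libraries after 60 min. All 6 came from primary striatal neurons of neonatal rats on day 7 in vitro, and from total RNA depleted of ribosomal RNA. Strain, genotype, sex and DMSO dose are not given in the labels. Separate cultures behind the libraries of a group are not stated, and p-values here cover no more than the library-to-library spread, possibly a technical one. Experiments 2 and 1 share the exposure time of 60 min, so what differs between them is the experiment, with its cultures and sequencing. Between experiment 3 and the others, exposure time and experiment cannot be told apart.

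The striatum is the input station of the basal ganglia, and nearly all of its neurons are GABAergic projection neurons. Those of the direct pathway carry the D1 dopamine receptor with dynorphin and substance P, and those of the indirect pathway carry the D2 receptor with enkephalin and the adenosine receptor Adora2a. A minority of interneurons uses somatostatin, neuropeptide Y or acetylcholine, and a culture of dissociated neonatal striatum also keeps glia.

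Aligned bases came to 8.31 and 14.9 gigabases in experiment 3, 4.56 and 4.88 gigabases in experiment 2, and 7.23 and 8.13 gigabases in experiment 1, and 79.9 to 81.2% of them lay in annotated transcripts. Levels are FPKM, that is, sequenced fragments divided by transcript length and by the size of the library; they were summed over a gene's transcripts and are printed as deposited. Fold changes are on the log2(FPKM + 0.5) scale after a size factor per library, which understates the change of low genes, and are given with their SE. A gene was called where limma's adjusted p (Benjamini-Hochberg over the 13635 genes tested) was under 0.05. In bulk RNA, fewer cells of a type and less RNA per cell cannot be told apart.

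Few of the most abundant transcripts were nuclear messenger RNAs. Of the 25 genes with the highest mean FPKM, 12 were mitochondrially encoded, 12 were small structural RNAs and 1, Actb (beta-actin), was a nuclear messenger RNA. The small RNAs were 7 copies of 7SK, which holds the kinase P-TEFb inactive, 3 copies of 7SL, the RNA of the signal recognition particle, and the RNase P and RNase MRP RNAs. The copies are near-identical, so their reads may be split among loci and only their sums are given. Of the aligned bases, mitochondrially encoded genes took 8.58 and 9.59% in experiment 3, 5.31 and 5.58% in experiment 2, and 8.05 and 9.79% in experiment 1. Both experiment 2 libraries lay below the other 4. The 424 annotated 7SK loci together took 2.57 and 2.10% in experiment 3, 2.15 and 2.16% in experiment 2, and 2.48 and 2.25% in experiment 1, and the experiment 3 libraries lay on either side of the others, with both experiment 2 libraries below those of experiment 1. For the 34 7SL loci the shares were 0.633 and 0.328% in experiment 3, 0.859 and 0.802% in experiment 2, and 0.639 and 0.324% in experiment 1. In experiments 3 and 1 alike, the library numbered 5 held about the same 7SL share as the other library numbered 5, and the libraries numbered 6 likewise.

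The nuclear messenger RNA of highest level was Actb. It stood at a mean of 3259.6 FPKM over the 6 libraries and was followed by LOC100364435, a locus without a further name, the elongation factor Eef1a1 (1840.3), the tubulin Tuba1a (1824), Actg1 (1469.8) and the actin-binding Tmsb4x (1462). The reticulon Rtn1 (1147), the imprinted gene Nnat (1145), the microtubule regulator Stmn1 (853), the synaptic vesicle protein Vamp2 (559.5) and the neuronal tubulin Tubb3 (529) followed among the 25 highest messenger RNAs. Genes for cytoskeletal proteins have near-identical copies, and the split of reads between them is uncertain.

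The libraries carried the markers of striatal GABAergic neurons, as labelled. Gad1, an enzyme that makes GABA, had 377 and 389 FPKM in experiment 3, 418 and 404 FPKM in experiment 2, and 384 and 379 FPKM in experiment 1. Gad2, the other GABA-making enzyme, had 336 and 364 FPKM in experiment 3, 433 and 418 FPKM in experiment 2, and 341 and 345 FPKM in experiment 1. These were among the 35 of 43 striatal projection neuron genes whose mean was above 10 FPKM. The projection neuron transcription factor Bcl11b had 69.9 and 73.8 FPKM in experiment 3, 66.4 and 66.6 FPKM in experiment 2, and 72.2 and 75.3 FPKM in experiment 1, Foxp1 averaged 74.8 FPKM over the 6 libraries and Meis2 averaged 167. Scn4b, a sodium channel subunit of mature striatum, averaged only 0.0764 FPKM. The vesicular glutamate transporters of excitatory neurons were low: Slc17a6 had 1.81 and 1.52 FPKM in experiment 3, 2.36 and 2.27 FPKM in experiment 2, and 1.73 and 1.75 FPKM in experiment 1, and Slc17a7 had 6.36 and 8.84 FPKM in experiment 3, 11.8 and 12.2 FPKM in experiment 2, and 7.61 and 6.38 FPKM in experiment 1.

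Glia were present and vascular and blood cells were close to absent. Among 20 astrocyte genes, 14 had a mean above 10 FPKM, and the intermediate filament Gfap (chromosome 10, 90990762 to 90999506, minus strand, Rnor_6.0) had 162 and 124 FPKM in experiment 3, 32.8 and 31.3 FPKM in experiment 2, and 113 and 127 FPKM in experiment 1. The groups of experiments 3 and 1 overlapped, and both experiment 2 libraries lay far below them. The colony-stimulating factor receptor Csf1r of microglia had 4.98 and 4.02 FPKM in experiment 3, 3.22 and 2.34 FPKM in experiment 2, and 4.65 and 4.65 FPKM in experiment 1. Myelin basic protein (Mbp) had 15.3 and 13.3 FPKM in experiment 3, 10.4 and 10.5 FPKM in experiment 2, and 15 and 14.2 FPKM in experiment 1, and Pdgfra, the receptor of oligodendrocyte precursors, had 0.268 and 0.281 FPKM in experiment 3, 0.219 and 0.164 FPKM in experiment 2, and 0.314 and 0.268 FPKM in experiment 1. Cldn5, the tight junction protein of endothelium, stayed at or below 0.0122 FPKM, and 13 of 19 endothelial and mural genes and 7 of 8 blood cell genes were under 0.5 FPKM in all 6 libraries. Collagen Col1a1 of fibroblasts had 1.49 and 0.993 FPKM in experiment 3, 0.363 and 0.552 FPKM in experiment 2, and 1.25 and 1.14 FPKM in experiment 1, and the proliferation marker Mki67 had 0.672 and 0.710 FPKM in experiment 3, 0.267 and 0.270 FPKM in experiment 2, and 0.681 and 0.725 FPKM in experiment 1.

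**Figure D1:**
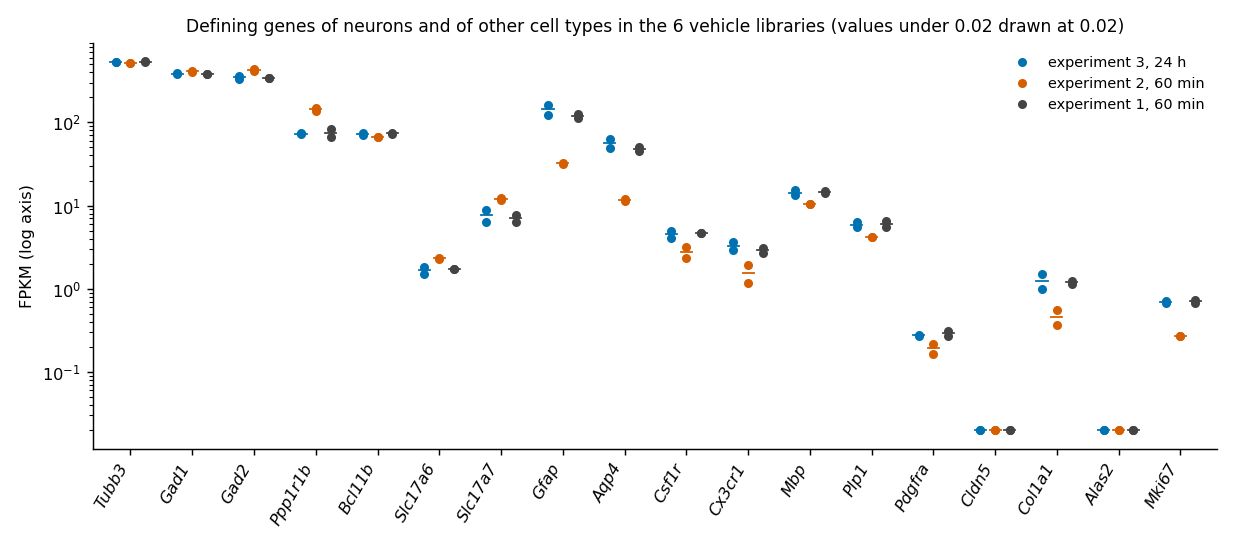
FPKM (log axis) of genes that mark neurons, glia, vessels, fibroblasts, blood and dividing cells; each point is a library, each bar the mean of the 2 libraries of a group. Gfap and Aqp4 stand lower in both experiment 2 libraries than in the other 4, while Tubb3 and Gad1 lie close together in all 6.

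Of the 5 dopamine receptors, those of the projection neurons were the detected ones. Drd2 (chromosome 8, 53678777 to 53743642, plus strand) had 29.3 and 32.7 FPKM in experiment 3, 28.8 and 29.3 FPKM in experiment 2, and 33.7 and 33.1 FPKM in experiment 1. Drd1 (chromosome 17, 11101306 to 11103541, plus strand), the receptor on which SKF acts, had 13.5 and 13.9 FPKM in experiment 3, 9.69 and 9.31 FPKM in experiment 2, and 11.9 and 10.8 FPKM in experiment 1. In every library Drd2 stood above Drd1. Drd5 and Drd3 stayed at or below 0.368 and 0.181 FPKM, and Drd4 was listed at 0. For Drd1 the lowest experiment 3 library was above the highest experiment 1 library and the experiment 2 libraries were lowest. Its fold change was 0.24 ± 0.07 for experiment 3 over experiment 1 (95% interval 0.09 to 0.40, adjusted p = 0.68), which was not called. It was -0.35 ± 0.07 for experiment 2 over experiment 1 (adjusted p = 0.0051) and 0.59 ± 0.07 for experiment 3 over experiment 2 (adjusted p = 3.6e-04), both called. Drd2 had a fold change of -0.12 ± 0.08 for experiment 3 over experiment 1 (95% interval -0.30 to 0.05), not called. Its lower level in experiment 2 than in experiment 1 (-0.30 ± 0.08, adjusted p = 0.016) lost the call without experiment 1 replicate 6 or without either experiment 2 library (adjusted p 0.074 to 0.097).

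Other modulatory receptors ranged widely. The CB1 cannabinoid receptor Cnr1 was the highest of those named here, with 109 and 101 FPKM in experiment 3, 73 and 68.1 FPKM in experiment 2, and 94 and 98.8 FPKM in experiment 1. Both experiment 2 libraries were below the other 4, and the level fell in experiment 2 against experiment 1 (-0.55 ± 0.07, adjusted p = 7.7e-04). Gpr6 (0.51 ± 0.07, adjusted p = 0.001) and Gpr52 (0.58 ± 0.07, adjusted p = 6.9e-04), receptors enriched in indirect pathway neurons, were higher in experiment 2 than in experiment 1. The adenosine receptor Adora2a had 53.3 and 62.2 FPKM in experiment 3, 49 and 46.9 FPKM in experiment 2, and 58.9 and 53.4 FPKM in experiment 1. Its groups in experiments 3 and 1 overlapped, and its call in experiment 2 over experiment 1 (-0.33 ± 0.09, adjusted p = 0.021) was lost when any 1 of the 4 libraries compared was left out (adjusted p 0.056 to 0.12). The mu opioid receptor Oprm1 averaged 18.2 FPKM, the delta receptor Oprd1 2.32 and the kappa receptor Oprk1 0.453. Among muscarinic receptors Chrm1 averaged 35.9 FPKM, Chrm3 7.58, Chrm2 3.12, Chrm4 2.78 and Chrm5 0.624. The nicotinic subunit Chrna7 had 13.4 and 14.1 FPKM in experiment 3, 26.7 and 28.2 FPKM in experiment 2, and 14 and 13.1 FPKM in experiment 1, without overlap between experiment 2 and the rest (0.89 ± 0.07, adjusted p = 4.6e-05).

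Receptors for glutamate and GABA were among the most abundant receptor genes. Mean levels were 264 FPKM for the GABA-B subunit Gabbr1, 105 for the AMPA subunit Gria1, 83 for the NMDA subunit Grin1 and 79.3 for Gria2. Grin2b, the NMDA subunit that dominates early in development, averaged 72.2 FPKM against 8.20 for Grin2a, which takes over in mature neurons. Among GABA-A alpha subunits Gabra2 (64) and Gabra5 (62.6) were above Gabra4 (16) and Gabra3 (13), and Gabra6 was listed at 0. The group I metabotropic receptor Grm5 averaged 55.3 FPKM. Of the serotonin receptors Htr1b (14.6) and Htr2c (11.5) were the only members with a mean above 10 FPKM. In experiment 2 over experiment 1, the AMPA and NMDA list had 5 of 9 members lower, where 19.7% of all genes tested were lower, and 0 higher, among them Gria1 (-0.40 ± 0.06, adjusted p = 0.0011) and Gria4 (-0.52 ± 0.08, adjusted p = 0.0019). The GABA receptor list moved both ways in that comparison. Of its 16 genes tested, 6 were higher and 4 lower (median 0.12), where 14.5% of all genes were higher and 19.7% lower. Gabra3 was among the lower ones (-0.79 ± 0.07, adjusted p = 7.5e-05).

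By the mean over the 6 libraries, the precursors of somatostatin and enkephalin led the peptide genes. Sst had 249 and 233 FPKM in experiment 3, 208 and 191 FPKM in experiment 2, and 237 and 219.7 FPKM in experiment 1, and its lower level in experiment 2 than in experiment 1 (-0.30 ± 0.07, adjusted p = 0.0084) lost the call without experiment 2 replicate 2 (adjusted p = 0.107). Penk (chromosome 5, 17056419 to 17061837, minus strand), the enkephalin precursor, had 102 and 125 FPKM in experiment 3, 174 and 171 FPKM in experiment 2, and 130.3 and 112 FPKM in experiment 1. Both experiment 2 libraries were above the other 4. The call in experiment 2 over experiment 1 (0.41 ± 0.11, adjusted p = 0.017) was lost without experiment 1 replicate 6 or without either experiment 2 library (adjusted p 0.084 to 0.1). Npy, the precursor of neuropeptide Y, had 132 and 139 FPKM in experiment 3, 87.5 and 87.6 FPKM in experiment 2, and 127 and 142 FPKM in experiment 1; its mean was below that of Penk in experiment 2 and above it in experiments 3 and 1. The precursor of cholecystokinin, Cck, had 88.4 and 92.4 FPKM in experiment 3, 91 and 84.5 FPKM in experiment 2, and 87.5 and 96.1 FPKM in experiment 1. The 3 groups overlapped for Cck, while Npy was lower in experiment 2 than in experiment 1 (-0.71 ± 0.09, adjusted p = 5.7e-04).

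The peptides of the direct pathway stood much lower than Penk. Pdyn, the dynorphin precursor, had 10.8 and 11.5 FPKM in experiment 3, 8.79 and 9.20 FPKM in experiment 2, and 12.3 and 10.6 FPKM in experiment 1; both experiment 2 libraries were below the other 4 (-0.43 ± 0.08, adjusted p = 0.0036 for experiment 2 over experiment 1). Tac1, the substance P precursor, had 2.88 and 2.48 FPKM in experiment 3, 3.30 and 2.65 FPKM in experiment 2, and 2.72 and 1.84 FPKM in experiment 1, and its groups overlapped. Some other peptides differed more between the experiments than Pdyn and Tac1. Adcyap1, the precursor of PACAP, had 2.40 and 3.49 FPKM in experiment 3, 12.2 and 11.4 FPKM in experiment 2, and 3.96 and 3.91 FPKM in experiment 1. Crh, the precursor of corticotropin-releasing hormone, had 0.449 and 0.208 FPKM in experiment 3, 3.32 and 2.68 FPKM in experiment 2, and 0.555 and 0.716 FPKM in experiment 1. The neurotrophin Bdnf had 0.225 and 0.301 FPKM in experiment 3, 3.28 and 2.71 FPKM in experiment 2, and 0.680 and 0.634 FPKM in experiment 1. For each of these, both experiment 2 libraries lay above the other 4 without overlap. In experiment 2 over experiment 1 the fold change was 1.37 ± 0.15, adjusted p = 2.6e-04 for Adcyap1, 1.54 ± 0.17, adjusted p = 3.2e-04 for Crh and 1.51 ± 0.13, adjusted p = 8.3e-05 for Bdnf. Vip (0.58 ± 0.09, adjusted p = 0.002) and Nts, the neurotensin precursor (0.79 ± 0.09, adjusted p = 3.2e-04), were also higher, and Trh, the precursor of thyrotropin-releasing hormone, was lower (-0.93 ± 0.10, adjusted p = 2.5e-04). Of 32 peptide genes, 13 were under 0.5 FPKM in all 6 libraries, and 7 had a mean above 10 FPKM.

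**Figure D2:**
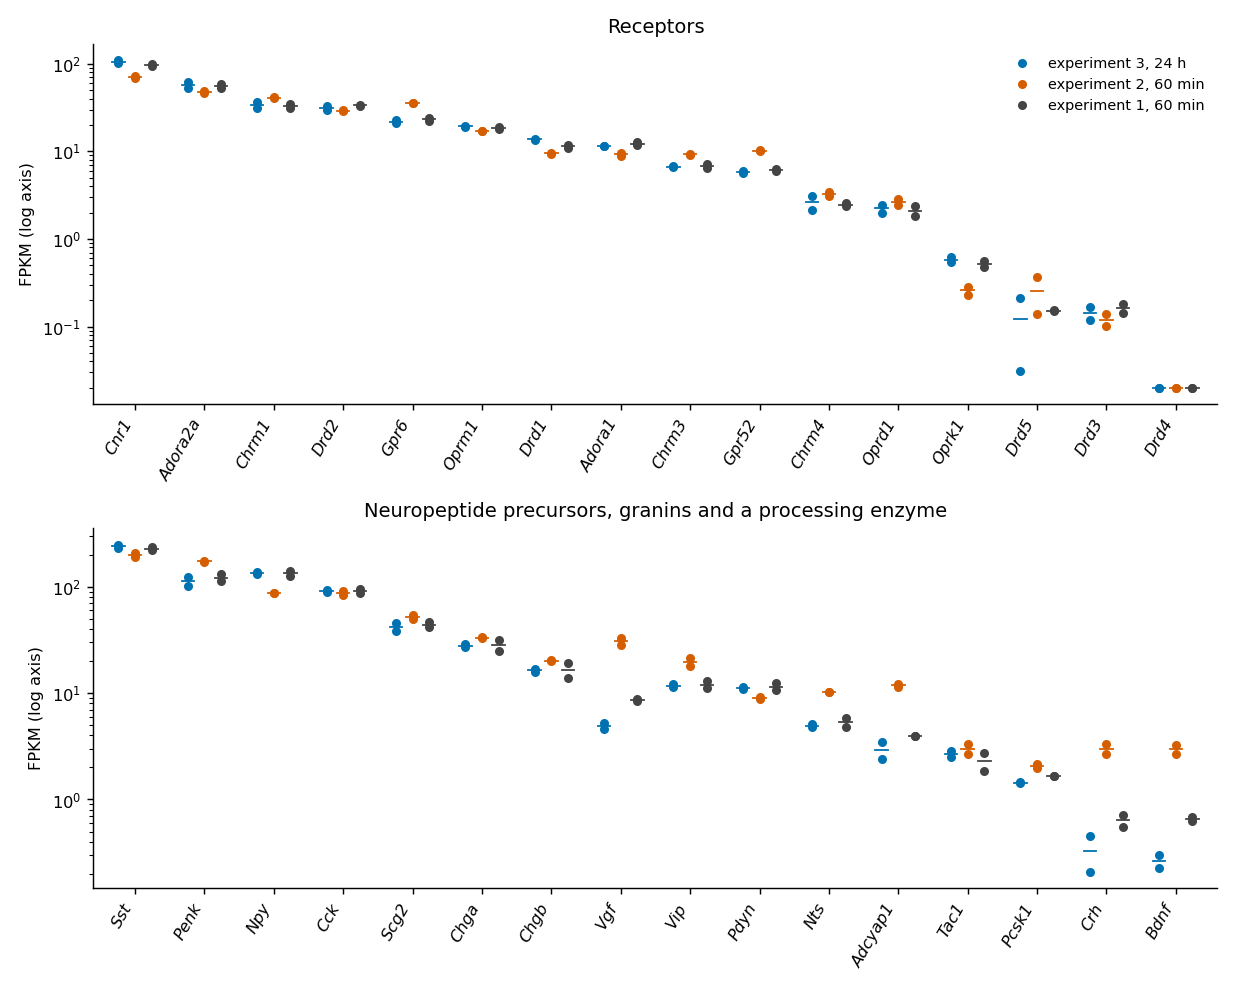
FPKM (log axis) of receptors and of peptide genes, in order of mean level; each point is a library and each bar the mean of 2, with values under 0.02 drawn at 0.02. The groups of experiments 3 and 1 lie together for Cnr1 and Npy, and both experiment 2 libraries stand apart for these, for Vgf, Adcyap1, Crh and Bdnf.

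The 3 comparisons of vehicle groups share libraries and are given side by side. In experiment 3 over experiment 1, 39 genes were called (0.286% of those tested), 4 of them higher (0.0293%) and 35 lower (0.257%). In experiment 2 over experiment 1 there were 4665 calls (34.2%), 1974 higher (14.5%) and 2691 lower (19.7%). The split rests on the scaling: 42.3% of the calls were higher with size factors, 62.0% with FPKM as deposited, and 53.7% with each library scaled to the same sum without mitochondrially encoded genes. Experiment 3 over experiment 2 had 4988 calls (36.6%), of which 2839, or 56.9%, were higher (20.8% of the genes tested) and 2149 lower (15.8%). That share was 40.7% with FPKM as deposited and 49.4% on the sum without mitochondrially encoded genes. The root mean square log2 distance between libraries over the genes tested was 0.168 to 0.212 within a group, 0.197 to 0.212 between experiments 3 and 1, and 0.386 to 0.425 between experiment 2 and either of the others. Without experiment 2 replicate 1 or 2, the calls in experiment 2 over experiment 1 numbered 2442 and 2583, and 2654 without experiment 1 replicate 6.

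**Figure D3:**
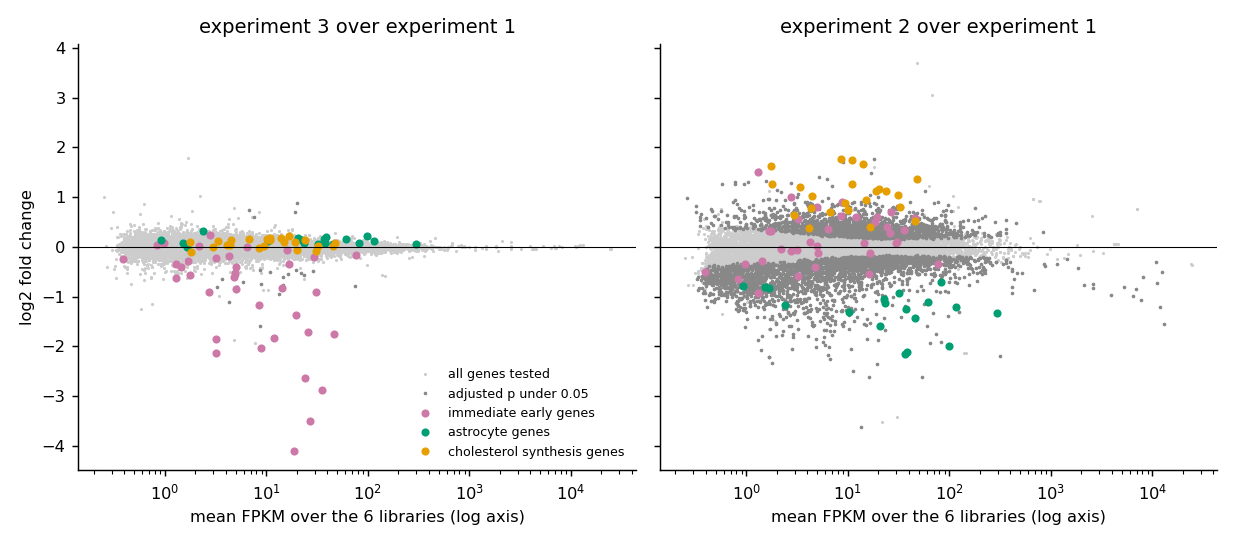
log2 fold change against mean FPKM (log axis) of each gene tested, with genes past the threshold in dark grey and members of 3 lists coloured. Experiment 3 over experiment 1 shows a narrow band with immediate early genes below it; experiment 2 over experiment 1 shows a wide band with cholesterol synthesis genes above and astrocyte genes below.

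The vehicle cultures of experiment 3, at 24 h, were set against those of experiment 1, at 60 min, and genes induced by neuronal activity led the genes called. Immediate early genes are transcribed within minutes of calcium and cyclic AMP signals, without new protein, and many encode transcription factors. Of the 36 members of that list tested, 17 were lower in experiment 3 and 0 higher, with a median log2 fold change of -0.59, against 0.257% of all genes lower and a median of 0.00058 over all genes tested. The 17 are 17 of the 39 genes called. Among the 330 genes tested in the 28 cell type, receptor and neuropeptide lists, limma called 0 here, against 0.286% of all genes. Of these 330, 15 had an unadjusted p under 0.05, and limma voom called 1. The median of the astrocyte list was 0.12, with its 18 tested genes between 0.01 and 0.32, and that of the pan-neuronal list 0.01. Summed over the astrocyte list, levels were 1332 and 1092 FPKM in experiment 3 and 1097 and 1114 FPKM in experiment 1. Only replicate 5 of experiment 3 stood above the experiment 1 libraries.

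Fosb (chromosome 1, 80214494 to 80221710, minus strand), a partner of Jun proteins in AP-1, had 1.10 and 0.600 FPKM in experiment 3, 34.7 and 32.1 FPKM in experiment 2, and 21.7 and 21.8 FPKM in experiment 1. Nr4a1 (chromosome 7, 142905758 to 142920216, plus strand), an orphan nuclear receptor, had 2.33 and 1.89 FPKM in experiment 3, 52.2 and 47.7 FPKM in experiment 2, and 30.6 and 26.5 FPKM in experiment 1. Fos (chromosome 6, 109300433 to 109303299, plus strand) had 5.93 and 5.04 FPKM in experiment 3, 62.4 and 54.1 FPKM in experiment 2, and 39.8 and 45.5 FPKM in experiment 1. In all of these both experiment 3 libraries were far below the other 4, with no overlap. For experiment 3 over experiment 1 the fold change was -4.09 ± 0.14, adjusted p = 1.6e-06 for Fosb, -3.49 ± 0.08, adjusted p = 2.0e-07 for Nr4a1 and -2.87 ± 0.11, adjusted p = 2.4e-06 for Fos. The related receptors Nr4a3 (-2.64 ± 0.07, adjusted p = 2.0e-07) and Nr4a2 (-1.85 ± 0.11, adjusted p = 5.3e-05) fell too. So did all 4 zinc finger factors of the Egr family: Egr2 (-2.13 ± 0.11), Egr4 (-2.04 ± 0.11), Egr1 (-1.74 ± 0.12) and Egr3 (-1.72 ± 0.11), with adjusted p of 3.1e-04 or less. Npas4, which organizes inhibitory synapses in response to activity, had 3.48 and 2.80 FPKM in experiment 3, 21.8 and 19.4 FPKM in experiment 2, and 11.4 and 13.3 FPKM in experiment 1 (-1.84 ± 0.11, adjusted p = 9.9e-05).

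Smaller falls followed among AP-1 factors, kinases, phosphatases and clock genes. The AP-1 members Junb (-1.36 ± 0.06, adjusted p = 1.6e-05) and Fosl2 (-1.16 ± 0.09, adjusted p = 5.0e-04) were lower in experiment 3 than in experiment 1. So were the pseudokinase Trib1 (-1.10 ± 0.11), the ERK phosphatase Dusp5 (-0.91 ± 0.10), the salt-inducible kinase Sik1 (-0.83 ± 0.06) and the clock genes Per1 (-0.91 ± 0.07) and Nfil3 (-0.95 ± 0.08), with adjusted p of 0.0043 or less. Vgf, a secreted granin-like protein, had 5.27 and 4.57 FPKM in experiment 3, 32.7 and 28.6 FPKM in experiment 2, and 8.81 and 8.40 FPKM in experiment 1. Against experiment 1 it was lower in experiment 3 (-0.77 ± 0.08, adjusted p = 0.0043) and higher in experiment 2 (1.67 ± 0.08, adjusted p = 8.2e-06). Arc, a synaptic protein that forms capsids, had 1.97 and 2.48 FPKM in experiment 3, 8.43 and 8.55 FPKM in experiment 2, and 4.70 and 4.0 FPKM in experiment 1. Its call (-0.85 ± 0.11, adjusted p = 0.019) was lost without any library but experiment 3 replicate 6 (adjusted p 0.062 to 0.13). Of the 35 genes lower in experiment 3, 14 lost their call without at least 1 of the 6 libraries. With any 1 library left out, 15 to 16 of the 36 immediate early genes were called lower.

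Higher in experiment 3 than in experiment 1 were 4 genes. Txnip (chromosome 2, 198683159 to 198686974, plus strand), an arrestin-domain protein that responds to glucose and restrains its uptake, had 36.7 and 34.4 FPKM in experiment 3, 4.78 and 5.67 FPKM in experiment 2, and 20.4 and 17.6 FPKM in experiment 1. The 3 groups did not overlap, and experiment 3 was highest (0.88 ± 0.08, adjusted p = 0.0021). Snx17, a sorting nexin of endosomes, had 21.9 and 19.2 FPKM in experiment 3, 25.5 and 23.6 FPKM in experiment 2, and 12.9 and 11.7 FPKM in experiment 1 (0.70 ± 0.07, adjusted p = 0.0022). Arrdc4, the closest relative of Txnip, had 10.7 and 10.9 FPKM in experiment 3, 5.07 and 4.45 FPKM in experiment 2, and 7.25 and 6.65 FPKM in experiment 1; its call (0.59 ± 0.08, adjusted p = 0.023) was lost when any 1 of the 4 libraries compared was left out (adjusted p 0.094 to 0.21). Fam210a, a mitochondrial protein, had a fold change of 0.73 ± 0.08 and lost its call without experiment 3 replicate 5 (adjusted p = 0.050).

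**Figure D4:**
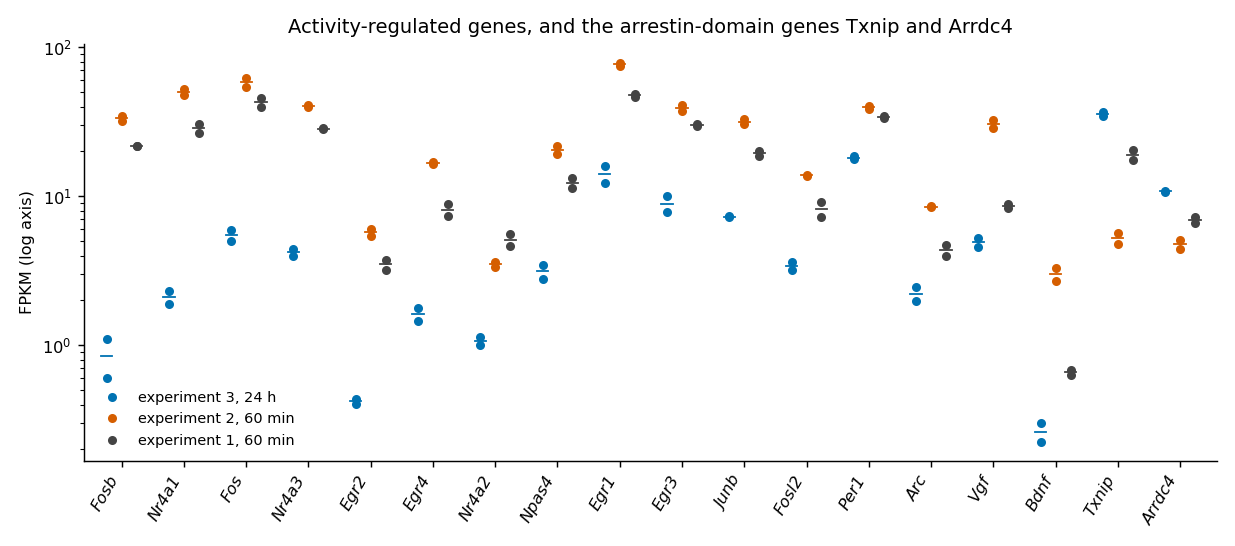
FPKM (log axis) of activity-regulated genes and of Txnip and Arrdc4; each point is a library and each bar the mean of 2. Both experiment 3 libraries lie below the other 4 for the activity genes from Fosb to Vgf, and above them for Txnip and Arrdc4.

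The promoters of 4 of the genes with the largest falls in experiment 3 are shown. Fos and Nr4a3, which fell more than Egr2 and Egr4, had no window in the promoter set used. Cyclic AMP response elements (CRE) are known in promoters of this class, and their part in these falls was not tested. They are RefSeq windows on build GRCr8, from 250 bases before to 50 after a start site, on the strand of the gene. Capitals mark TGACG, the core of the CRE, or its reverse complement CGTCA.
Fosb promoter, chr1:88089135-88089434, minus strand: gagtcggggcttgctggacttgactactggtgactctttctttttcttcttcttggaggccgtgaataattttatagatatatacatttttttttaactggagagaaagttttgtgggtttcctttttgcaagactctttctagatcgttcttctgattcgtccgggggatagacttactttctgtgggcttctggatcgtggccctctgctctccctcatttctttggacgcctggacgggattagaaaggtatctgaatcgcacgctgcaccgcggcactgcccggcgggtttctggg
Nr4a1 promoter, chr7:134259888-134260187, plus strand: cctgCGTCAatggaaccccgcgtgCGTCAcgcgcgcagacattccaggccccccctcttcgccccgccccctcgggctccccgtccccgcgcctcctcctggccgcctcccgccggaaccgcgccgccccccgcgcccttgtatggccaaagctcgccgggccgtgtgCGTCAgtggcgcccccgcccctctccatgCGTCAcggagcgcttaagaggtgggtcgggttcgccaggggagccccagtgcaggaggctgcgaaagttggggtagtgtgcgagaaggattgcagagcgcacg
Egr2 promoter, chr20:21054392-21054691, minus strand: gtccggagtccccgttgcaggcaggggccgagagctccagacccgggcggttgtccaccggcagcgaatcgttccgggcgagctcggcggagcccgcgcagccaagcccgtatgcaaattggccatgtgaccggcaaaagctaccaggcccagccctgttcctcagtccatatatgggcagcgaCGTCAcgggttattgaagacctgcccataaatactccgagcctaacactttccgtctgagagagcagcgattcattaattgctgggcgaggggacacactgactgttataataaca
Egr4 promoter, chr4:119607768-119608067, minus strand: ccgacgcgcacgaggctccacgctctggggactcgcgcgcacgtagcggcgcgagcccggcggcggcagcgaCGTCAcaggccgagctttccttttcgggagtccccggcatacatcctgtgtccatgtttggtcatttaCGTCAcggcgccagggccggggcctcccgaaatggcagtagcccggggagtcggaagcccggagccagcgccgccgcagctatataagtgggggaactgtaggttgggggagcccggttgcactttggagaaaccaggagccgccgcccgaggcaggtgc
The Nr4a1 window held 4 such matches, that of Egr4 held 2, that of Egr2 held 1 and that of Fosb, the gene with the largest fall, held 0; none of these matches overlapped. Searched on both strands, TGACG was found in a window of 17 of the 28 immediate early genes with an entry (60.7%), of 10 of 16 cholesterol synthesis genes (62.5%), of 3 of 17 astrocyte genes (17.6%) and of 23.1% of all 27370 genes in the table. The full element TGACGTCA, each copy of which also holds TGACG, was in 6 of the 28 immediate early genes and in 2.0% of all genes. The CArG box, the site of serum response factor, was in 5 of 28 and in 1.76%. These matches describe letters, not binding.

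The immediate early genes stood differently in experiment 2. Against experiment 1, 14 of 36 were higher and 6 lower, where 14.5% of all genes were higher and 19.7% lower, so that the lower share was below that of all genes; the median was 0.10. Among those higher were Nr4a1 (0.70 ± 0.08, adjusted p = 5.0e-04), Junb (0.59 ± 0.06, adjusted p = 3.0e-04), Egr4 (0.90 ± 0.11, adjusted p = 4.6e-04) and Arc (0.80 ± 0.11, adjusted p = 0.0012). Nr4a2 was lower in experiment 2 than in experiment 1 (-0.58 ± 0.11, adjusted p = 0.0037), with 1.13 and 0.999 FPKM in experiment 3, 3.64 and 3.33 FPKM in experiment 2, and 5.59 and 4.61 FPKM in experiment 1. Of the 14, 10 stood without experiment 2 replicate 1, and of the 6 lower, 3 without experiment 2 replicate 2. In experiment 3 over experiment 2, 23 of 36 were lower and 4 higher, or 1 higher without experiment 3 replicate 5, where 15.8% of all genes were lower and 20.8% higher (median -0.75), with Fosb at -4.60 ± 0.14, Nr4a1 at -4.19 ± 0.08 and Bdnf at -2.12 ± 0.13.

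The vehicle cultures of experiment 2 carried less astrocyte RNA than those of experiment 1. Of the 330 cell type, receptor and neuropeptide genes above, 196 were called in experiment 2 over experiment 1, where 34.2% of all genes were. All 18 astrocyte genes tested were lower, where 19.7% of all genes were, with a median log2 fold change of -1.20 against -0.021 over all genes; 2 of the 20 listed were not tested. The same 18 were called with each of the 6 libraries left out in turn. Summed over the 20 genes, levels were 1332 and 1092 FPKM in experiment 3, 487 and 458 FPKM in experiment 2, and 1097 and 1114 FPKM in experiment 1. Gfap fell most but for the water channel Aqp4 and the gap junction protein Gja1. Aqp4 had 62.8 and 49.8 FPKM in experiment 3, 11.9 and 11.2 FPKM in experiment 2, and 45.3 and 51.1 FPKM in experiment 1 (-2.12 ± 0.10, adjusted p = 8.2e-06), Gja1 had 58.6 and 47.7 FPKM in experiment 3, 11.1 and 10.9 FPKM in experiment 2, and 43.3 and 50.7 FPKM in experiment 1 (-2.14 ± 0.11, adjusted p = 8.2e-06), and for Gfap the test gave -1.99 ± 0.11, adjusted p = 1.5e-05. The lipid carrier Apoe (-1.32 ± 0.09, adjusted p = 2.9e-05), the glutamate transporters Slc1a3 (-1.24 ± 0.08) and Slc1a2 (-0.92 ± 0.07) and the calcium-binding S100b (-1.10 ± 0.10) were also lower.

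Other non-neuronal genes fell beside them. Of 21 microglial and myeloid genes 18 were lower, where 19.7% of all genes were, and 0 higher (median -0.79, summed level 178 and 148 FPKM in experiment 3, 94.5 and 87.3 FPKM in experiment 2, and 176 and 154 FPKM in experiment 1), among them the complement genes C1qc (-1.44 ± 0.09, adjusted p = 2.2e-05) and C1qb (-1.25 ± 0.14, adjusted p = 4.6e-04) and Csf1r (-0.75 ± 0.14, adjusted p = 0.0034). Of 15 oligodendrocyte lineage genes 11 were lower and 0 higher, with Mbp at -0.57 ± 0.07, adjusted p = 4.5e-04; without experiment 2 replicate 2 the count was 7. All 7 ependymal genes tested, 5 of 5 mural and endothelial genes and 5 of 6 fibroblast genes were lower. These are the members that passed the filter, of 12, 19 and 16 in the files. Near the filter's floor a gene could pass through the libraries of experiments 3 and 1 alone. That favours falls in experiment 2, so these counts do not establish a fall of the lists. The mural and endothelial count was 3 without experiment 2 replicate 2. Cell cycle genes were lower in 14 of 25 and higher in 0 (median -0.38), with Top2a at -1.0 ± 0.12, adjusted p = 5.0e-04. Of the 28 in the files, 2 had a mean above 10 FPKM, and Mki67 passed the filter through experiments 3 and 1 alone. The cell cycle count is open to the same effect of the filter and does not establish a fall of that list. Progenitor genes were lower in 9 of 14, and in 6 without experiment 1 replicate 6. The part that glial content plays in any other difference of experiment 2 was not tested.

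The pan-neuronal and projection neuron lists had calls in both directions, and 14.5% of all genes were higher and 19.7% lower. Pan-neuronal genes were higher in 5 of 20 and lower in 4, with a median of 0.02, and projection neuron genes were higher in 8 of 42 and lower in 5, with a median of -0.02. The pan-neuronal counts were 3 higher without experiment 2 replicate 1 and 2 lower without experiment 1 replicate 6; the projection neuron count of 5 lower was 3 without experiment 2 replicate 2. With FPKM as deposited, 8 pan-neuronal genes were higher, and 14 projection neuron genes were higher and 3 lower. Ppp1r1b, the phosphatase inhibitor DARPP-32 of projection neurons, had 72 and 74.9 FPKM in experiment 3, 147 and 138 FPKM in experiment 2, and 83.2 and 66.4 FPKM in experiment 1. Both experiment 2 libraries were above the other 4 (0.83 ± 0.09, adjusted p = 2.4e-04). The neurofilaments Nefl (0.62 ± 0.07, adjusted p = 4.4e-04) and Nefm (0.88 ± 0.08, adjusted p = 1.2e-04) were higher as well. Crym, a thyroid hormone-binding protein, had 16.3 and 10.9 FPKM in experiment 3, 4.72 and 3.71 FPKM in experiment 2, and 14.1 and 12.3 FPKM in experiment 1, the lowest libraries being those of experiment 2 (-1.64 ± 0.16, adjusted p = 2.6e-04). The interneuron list stood lower: its genes fell in 17 of 22 and rose in 2 (median -0.68, 15 to 18 lower with a library left out). Their fall took in the medial ganglionic eminence factors Nkx2-1 (-1.02 ± 0.09, adjusted p = 9.3e-05), Sox6 (-0.80 ± 0.09) and Lhx6 (-0.56 ± 0.11), the choline transporter Slc5a7 of cholinergic cells (-1.80 ± 0.14, adjusted p = 6.3e-05) and calretinin, Calb2 (-0.98 ± 0.07, adjusted p = 3.2e-05). Vip and the matrix protein Reln (0.58 ± 0.10, adjusted p = 0.0025) were the 2 that rose.

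**Figure D5:**
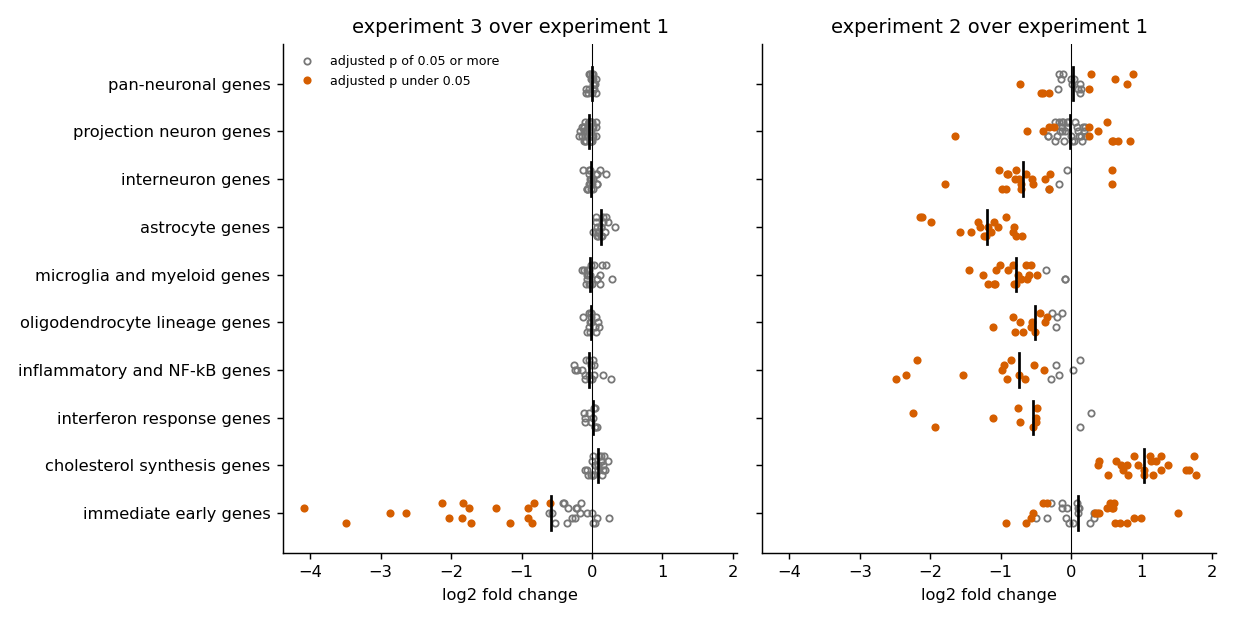
log2 fold change of each tested gene of 10 lists; filled points passed the threshold and the vertical bars are list medians. In experiment 3 over experiment 1 the immediate early list lies furthest from 0, and all 18 astrocyte genes lie between 0.01 and 0.32, none past the threshold; in experiment 2 over experiment 1 the medians of the glial, inflammatory and interneuron lists lie below 0 and that of the cholesterol list above it.

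Inflammatory genes were lower in experiment 2 than in experiment 1. The iron-binding acute phase protein Lcn2 had 431 and 396 FPKM in experiment 3, 107 and 95.8 FPKM in experiment 2, and 423 and 441 FPKM in experiment 1. The complement component C3 had 29.2 and 23.6 FPKM in experiment 3, 5.27 and 5.24 FPKM in experiment 2, and 27.8 and 26 FPKM in experiment 1, and ceruloplasmin, Cp, had 18.6 and 13 FPKM in experiment 3, 2.50 and 2.68 FPKM in experiment 2, and 15.8 and 15.7 FPKM in experiment 1. For each of these the experiment 2 libraries lay below the other 4 without overlap. The fold change was -2.19 ± 0.08, adjusted p = 1.9e-06 for Lcn2, -2.35 ± 0.08, adjusted p = 1.9e-06 for C3 and -2.49 ± 0.13, adjusted p = 8.2e-06 for Cp. Chi3l1, a chitinase-like protein secreted by reactive glia, had the largest fall of the called genes with a symbol, a mean of at least 1 FPKM in experiment 1 and no overlap (-3.62 ± 0.17, adjusted p = 1.3e-05). The inflammatory list had 12 of 17 members lower, where 19.7% of all genes were, and 0 higher, or 6 lower without experiment 1 replicate 6. Of the interferon response list, against the same share of all genes, 9 of 11 were lower, or 4 without experiment 2 replicate 1, with B2m (-1.93 ± 0.08, adjusted p = 3.8e-06), the light chain of MHC class I, and Ifitm3 (-2.25 ± 0.16, adjusted p = 3.8e-05) in front. The 11 interferon genes are those that passed the filter, of 22 in the files, and 1 had a mean above 10 FPKM. Near its floor the filter favours falls in experiment 2, so this count does not establish a fall of the interferon list. Astrocyte and microglial sums moved with the inflammatory and interferon lists, and their part was not tested.

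Cholesterol synthesis was the group that was higher in experiment 2 throughout. All 23 members tested rose against experiment 1, where 14.5% of all genes did, with a median log2 fold change of 1.04; 21 to 23 were called with a library left out. Hmgcs1 (chromosome 2, 52431601 to 52445055, plus strand), which makes HMG-CoA, had 28.3 and 34.7 FPKM in experiment 3, 81 and 83.5 FPKM in experiment 2, and 31.6 and 27.2 FPKM in experiment 1. Both experiment 2 libraries were above the other 4 (1.37 ± 0.10, adjusted p = 4.6e-05). Insig1, which retains the sterol sensor in the endoplasmic reticulum (1.77 ± 0.13, adjusted p = 4.2e-05), and the squalene synthase Fdft1 (1.75 ± 0.13, adjusted p = 3.9e-05) rose further. In experiment 3 over experiment 2, 22 of the 23 were lower, where 15.8% of all genes were. In experiment 3 over experiment 1 limma called 0 (median 0.09), where 0.286% of all genes were called. There, an unadjusted p was under 0.05 for 0 of 23, and limma voom made 0 calls.

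Sex-linked genes also differed, in both directions. Of 7 tested in their list, 3 were higher in experiment 2 than in experiment 1 and 2 lower. Of all genes tested, 14.5% were higher and 19.7% lower. The Y-linked translation factor Eif2s3y had 10.5 and 11.6 FPKM in experiment 3, 17.5 and 16.7 FPKM in experiment 2, and 11.5 and 10.7 FPKM in experiment 1, with both experiment 2 libraries above the rest (0.50 ± 0.08, adjusted p = 0.0016). The Y-linked Kdm5d (0.47 ± 0.09, adjusted p = 0.0047) and the gene the files name Ddx3 on chromosome Y (0.67 ± 0.07, adjusted p = 3.6e-04) were higher in experiment 2 too. On chromosome X, Eif2s3 was lower (-0.63 ± 0.07, adjusted p = 3.4e-04), and an unnamed gene of the files, AABR07039356.2 (chromosome X, 74333329 to 74337975, minus strand), had 92 and 88.7 FPKM in experiment 3, 31.5 and 33.1 FPKM in experiment 2, and 102 and 101 FPKM in experiment 1 (-1.74 ± 0.06, adjusted p = 1.9e-06). That gene was picked after its values were seen and is not in the list. None of these was called in experiment 3 over experiment 1. Of other X-linked genes, Kdm6a was called lower in experiment 2 than in experiment 1. Its call was lost without experiment 1 replicate 6 or without either experiment 2 library. Ddx3x went the other way from Eif2s3 and was called lower in experiment 3 than in experiment 2. The labels give no sex, and how many pups of each sex went into a culture was not analysed here.

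Experiment 3 over experiment 2 shares both its groups with the comparisons above. The astrocyte list was higher in 18 of 18, microglial genes in 18 of 21 and interneuron genes in 17 of 22, where 20.8% of all genes were higher. Among the genes of largest change, Gfap (2.22 ± 0.11, adjusted p = 5.6e-06) and C3 (2.30 ± 0.08, adjusted p = 6.1e-07) were higher in experiment 3 than in experiment 2. Txnip had 2.74 ± 0.08, adjusted p = 4.7e-07, the sum of a rise over experiment 1 and a fall of experiment 2 below it. Vgf (-2.43 ± 0.08, adjusted p = 5.9e-07) and Adcyap1 (-1.77 ± 0.15, adjusted p = 5.7e-05) were lower in experiment 3 than in experiment 2. Of all 13635 genes tested, 7983 were called in none of the 3 comparisons, and 4001 were called for experiment 2 against each of the other groups.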

How the data were processed

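Per the labels, total RNA from a column kit was depleted of ribosomal RNA and strand-marked libraries were made from it. The submitters' processing notes name STAR, StringTie, Trim Galore, FastQC and DESeq2 and the rat build Rnor 6.0, with versions not given in the sources used here. The deposited files list 41078 transcripts of 32883 genes with the FPKM computed by the authors, and the coverage of each transcript, a signal also computed by the authors. Use of the strand in counting is not stated; values of antisense, overlapping and near-identical genes are therefore uncertain.

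Gene FPKM were summed over transcripts and divided by median-ratio size factors (0.945 to 1.05). Aligned bases were obtained from coverage and FPKM; no read counts were used for the main test, and intervals cover the spread between libraries only. The filter kept genes with a transcript of 200 nucleotides or more that reached an FPKM of 0.5 in 2 or more of the 6 libraries. A limma 3.58.1 model (R 4.3.3, trend and robust, 3 residual degrees of freedom) with a mean per vehicle group was fitted to log2(FPKM + 0.5) of the 6 libraries, and tests are two-sided. Tables were handled in Python 3.11.15 with pandas 2.3.3 and numpy 2.4.6.

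Of 782 symbols in 43 lists, 754 were matched to the files, 2 through a RefSeq synonym; the others are not analysed here. The members, lists and tests were chosen with earlier results of these data known. Named genes are the 25 of highest mean, per comparison the 10 largest rises and falls among called genes without overlap, for each list 4 or fewer of the called genes with the smallest p and 4 or fewer of the highest level, the receptors and peptides, and a fixed set of markers; some of these are not reported here. Named outside this rule, after values were seen, were the messenger RNAs of highest level other than Actb, and C1qb, Fosl2, Foxp1, Lhx6, Phgdh, Reln, S100b, Scn4b, Sik1, Slc1a2, Slc1a3, Sox6 and Trib1.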

Additional observations from a re-analysis of the deposited data

How the results depend on the processing

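The direction of each named call held under all alternatives except that of Fam210a in experiment 3 over experiment 2, which was -0.18 under limma voom; of the single-gene values recomputed, 13001 kept direction and call and 1286 lost the call. Calls are counts of genes. Some settings put fewer samples or more genes into the test, and the causes of the changes below were not tested. In experiment 3 over experiment 1 (39 calls, 4 higher and 35 lower) there were 11, 0 and 11 with no filter on low values (24330 genes tested, 946 with an unadjusted p under 0.05), 61 and 10 higher with all 23 libraries in the fit, 25 and 22 lower with neither trend nor robust, and 7 higher with sums without mitochondrially encoded genes. Leaving out a library gave 27 to 34 calls, 3 to 5 higher and 23 to 30 lower. In experiment 2 over experiment 1 (4665, 1974 and 2691) no filter gave 2964 and 1138 higher, FPKM as deposited gave 1766 lower, and leaving out a library gave 2442 to 4728 calls, 825 to 2014 higher and 1617 to 2714 lower. In experiment 3 over experiment 2 (4988, 2839 and 2149) no filter gave 1339 lower, and leaving out a library gave 2804 to 5177 calls, 1726 to 2902 higher and 1030 to 2278 lower. A difference among the 3 groups was called for 4426 genes, 2495 with no filter and 1923 to 4717 with a library left out. Without a library a group of 1 is assumed to vary like the others. Over transcript bases in place of aligned bases, mitochondrially encoded genes took 11.25% in experiment 3, 6.74% in experiment 2 and 11.08% in experiment 1. The replicate numbers 5 and 6 occur in experiments 3 and 1. Same-numbered libraries did not deviate together across genes (r = -0.09, 2 pairs), and the numbers were not taken to pair them. Some library measures did go with the number. The 7SL shares of same-numbered libraries were close. In both experiments the library numbered 5 had the lower mitochondrial share and the higher 7SK share and size factor. The correlation across genes therefore cannot exclude a pairing. With a replicate block, experiment 3 over experiment 1 had 69 calls in 6 libraries, 10 higher and 59 lower. In all 23 libraries it had 65, 10 and 55. Experiment 2 has other numbers, so no pairing with it could be made. Experiment 2, at 4.56 and 4.88 gigabases, was the least deeply sequenced, which limits low genes there.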

Other observations

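Genes of metabolism and stress differed between the 60 min vehicle groups, where 14.5% of all genes tested were higher in experiment 2 than in experiment 1 and 19.7% lower. Of 24 hypoxia and glycolysis genes tested, 10 were higher in experiment 2 than in experiment 1 and 5 lower, with a median of 0.09; the lower share is near that of all genes, 5 were higher without experiment 2 replicate 1, and 3 were lower without experiment 1 replicate 5 or with FPKM as deposited. Lactate dehydrogenase, Ldha, had 85.6 and 84.3 FPKM in experiment 3, 153 and 142 FPKM in experiment 2, and 87.5 and 77.6 FPKM in experiment 1 (0.73 ± 0.07, adjusted p = 1.2e-04), and the aldolase Aldoa rose with it (0.55 ± 0.07, adjusted p = 5.9e-04). Of 20 amino acid and Atf4 response genes 11 were higher and 4 lower (median 0.39 against -0.021 over all genes, 10 to 13 higher with a library left out), among them the transcription factor Atf4 (0.75 ± 0.06, adjusted p = 7.5e-05) and the mitochondrial folate enzyme Mthfd2 (1.28 ± 0.14, adjusted p = 3.2e-04), while the serine synthesis enzyme Phgdh was lower (-0.81 ± 0.13, adjusted p = 0.0025). Of 20 chaperones 9 were higher (median 0.29), or 3 without experiment 2 replicate 1, with Hspa5, the chaperone BiP of the endoplasmic reticulum, at 0.59 ± 0.07, adjusted p = 5.8e-04. The 1 that was lower was the small heat shock protein Hspb1, which had 28.7 and 20.3 FPKM in experiment 3, 3.24 and 3.01 FPKM in experiment 2, and 18.3 and 22.6 FPKM in experiment 1 (-2.62 ± 0.15, adjusted p = 2.8e-05). Neither the Atf4 list nor the chaperones had a call by limma in experiment 3 over experiment 1 (0 of each). In that comparison 0.286% of all genes were called, so 0 calls in lists of 20 genes tell little about them. Limma voom also had 0, and an unadjusted p was under 0.05 for 0 and 1 of their genes.

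In the oxidative stress and metallothionein list 9 of 17 genes were lower in experiment 2 than in experiment 1, or 3 without experiment 2 replicate 2 and 4 with FPKM as deposited, and 2 were higher, or 0 without experiment 2 replicate 1. The iron uptake list had 3 of 9 higher and 3 lower, with 1 to 2 higher when any 1 library was left out and 1 lower without experiment 2 replicate 2. The metallothioneins Mt1 (-2.17 ± 0.14, adjusted p = 2.3e-05) and Mt2A (-1.59 ± 0.10, adjusted p = 2.1e-05) and transferrin, Tf, with 126 and 88.2 FPKM in experiment 3, 33.7 and 29.3 FPKM in experiment 2, and 118 and 104 FPKM in experiment 1 (-1.90 ± 0.13, adjusted p = 3.9e-05), were lower in experiment 2 than in experiment 1, and the transferrin receptor Tfrc was higher (0.54 ± 0.06, adjusted p = 3.8e-04). Of 42 potassium, sodium and calcium channel genes 13 were higher and 7 lower in experiment 2 over experiment 1, the lower share being below the 19.7% of all genes, or 8 higher without experiment 2 replicate 2 and 2 lower without experiment 2 replicate 1; with FPKM as deposited 20 were higher and 3 lower. Kcnk9, a two-pore potassium channel outside that list, had 8.49 and 8.64 FPKM in experiment 3, 33.5 and 39.9 FPKM in experiment 2, and 9.87 and 9.44 FPKM in experiment 1 (1.77 ± 0.09, adjusted p = 8.2e-06). Of the perineuronal net and adhesion genes, aggrecan, Acan, had 0.713 and 0.911 FPKM in experiment 3, 3.61 and 3.72 FPKM in experiment 2, and 0.818 and 0.696 FPKM in experiment 1 (1.65 ± 0.12, adjusted p = 4.2e-05). Of 19 clock genes 6 were higher and 4 lower, the lower share being near that of all genes, or 4 higher without experiment 2 replicate 1, 1 lower without experiment 1 replicate 6, and 2 lower with FPKM as deposited, with Dbp at 0.52 ± 0.08, adjusted p = 0.0021. The 10 genes for BET proteins and P-TEFb cover the targets of bromodomain inhibitors and their partner kinase. Of these, limma and limma voom called 0 in experiment 3 over experiment 1, where limma called 0.286% of all genes. There, 1 of the 10 had an unadjusted p under 0.05. In experiment 2 over experiment 1 limma called 4 lower, where 19.7% of all genes were lower, and fewer when experiment 2 replicate 2 was left out.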
